A study of Mus musculus with 10 samples.

Results

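The guanylate-binding proteins are large GTPases that cells make in response to interferons, above all interferon gamma. They assemble on the membranes of intracellular bacteria and of parasite vacuoles, help to open these compartments, and promote the activation of inflammatory caspases. In mice their genes lie in a cluster on chromosome 3 and a cluster on chromosome 5. In the brain, microglia, macrophages, astrocytes and endothelial cells can raise them when interferon gamma from T cells reaches the tissue.

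The members were Gbp2, Gbp3, Gbp4, Gbp6 and Gbp7, taken by their symbol in the platform annotation, with each probe set that lists no other gene. Of these 5 genes, 4 had such a probe set, 7 in all: 2 for Gbp2, 1 for Gbp3, 2 for Gbp6 and 2 for Gbp7. They are 7 of 45037 probe sets on the array and 4 of 18193 genes with a probe set of their own. The 1 probe set of Gbp4 is also assigned to Gbp8, so Gbp4 has no value here. The genes were chosen with the difference between the same groups already known, so their differences are given as descriptions and without p-values. The lists of other genes below were also chosen with earlier results of these data known. Their counts and adjusted p are therefore descriptions too.

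Each sample was the whole hippocampus of a female SJL/J mouse, adult and obtained at 8 to 10 weeks of age. In the TPlp+AxL group, 5 mice received T cells specific for proteolipid protein, a major myelin protein, by adoptive transfer, followed by an axonal lesion. In the AxL group, 5 mice had the axonal lesion alone. RNA was taken 2 days after the lesion in both groups, and each mouse gave 1 array. Both groups carry the lesion, and no array from mice without one was analysed here, so the comparison addresses the transferred T cells and not the lesion.

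All values are log2 expression values made by the authors with RMA, a method that corrects background, normalizes arrays and summarises the probes of a probe set. A difference of 1 on this scale is a factor of 2. Levels of different probe sets cannot be set against each other, since each has its own probes, and the number of arrays limits the precision.

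The promoters of the 3 members on chromosome 3 are shown first, because each of these genes holds the letters of an interferon-responsive element ahead of 1 annotated start. The sequences are RefSeq's for GRCm38.p6, from the C57BL/6J reference and not from SJL/J mice, and all 4 lie on the plus strand. Each stops at the last base before the annotated gene, and the start from which positions are counted is the next base in Gbp2 and Gbp7 but lies 28 bases further on in Gbp3 and 31 in Gbp2b. Capitals mark matches to the core of the interferon-stimulated response element that Irf factors bind, which is GAAA, any 2 bases and GAAA again. Both strands were searched, and every match shown lies on the minus strand and so reads as TTTC, 2 bases and TTTC. Gbp2b, the neighbour between Gbp3 and Gbp2 in the same cluster, is set beside them.
Gbp2, chr3:142620413-142620662: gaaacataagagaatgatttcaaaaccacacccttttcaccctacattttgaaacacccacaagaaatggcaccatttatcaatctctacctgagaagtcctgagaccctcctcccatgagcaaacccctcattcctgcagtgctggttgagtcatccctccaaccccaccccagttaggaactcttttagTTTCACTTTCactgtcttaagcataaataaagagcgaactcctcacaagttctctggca
Gbp3, chr3:142559794-142560015: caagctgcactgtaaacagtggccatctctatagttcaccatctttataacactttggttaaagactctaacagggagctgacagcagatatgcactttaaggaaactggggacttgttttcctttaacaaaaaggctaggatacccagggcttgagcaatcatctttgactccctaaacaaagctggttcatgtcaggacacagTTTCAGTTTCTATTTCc
Gbp7, chr3:142530086-142530335: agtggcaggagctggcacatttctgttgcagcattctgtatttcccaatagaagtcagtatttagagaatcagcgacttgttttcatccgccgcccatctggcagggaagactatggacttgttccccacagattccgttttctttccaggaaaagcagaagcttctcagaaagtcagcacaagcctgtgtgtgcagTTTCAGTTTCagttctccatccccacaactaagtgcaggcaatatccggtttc
Gbp2b, chr3:142594597-142594815: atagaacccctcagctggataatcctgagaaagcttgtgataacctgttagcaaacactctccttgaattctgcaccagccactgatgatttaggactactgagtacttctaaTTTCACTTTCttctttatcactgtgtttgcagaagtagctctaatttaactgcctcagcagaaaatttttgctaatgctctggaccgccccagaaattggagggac

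The core began 59 bases before the start in Gbp2, 53 in Gbp7 and 137 in Gbp2b. Gbp3 had 2 overlapping matches, 45 and 39 bases before the first of its starts in the promoter table, and none at its other start. Over all 32851 promoters of 300 bases in the table, 3.44% held this core. TTCNNNGAA, the letters of the gamma-activated site, which read the same on both strands, was in 8.30% of all promoters. It matched at 2 places in the Gbp7 promoter, 106 and 87 bases before the start, and at none in the windows of Gbp2, Gbp3 and Gbp2b. The promoter of Gbp5, the first gene of the same cluster, also held TTCNNNGAA at 2 places and the core at 1. The table matched 3 of the 5 members. A match is a run of letters and not a measured binding site.

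Every member probe set was higher in TPlp+AxL hippocampi, and the 2 groups did not overlap in any of the 7. Log2 differences ran from 1.42 for Gbp3 to 2.39 for Gbp2, which is 2.67-fold to 5.25-fold, with a median of 1.78 beside -0.0034 over all 45037 probe sets. By size of increase the 7 stood between rank 2 and rank 32 of all probe sets. In the limma fit over all probe sets, 7 of 7 passed an adjusted p of 0.05 as higher, as did 0.646% of all probe sets, and 0 passed as lower, as did 0.189%. TPlp+AxL lay entirely above AxL in 1.94% of all probe sets and in 2.20% of all genes, each by its brightest probe set. Since these genes were picked from this contrast, nothing is read from those counts.

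**Figure D1:**
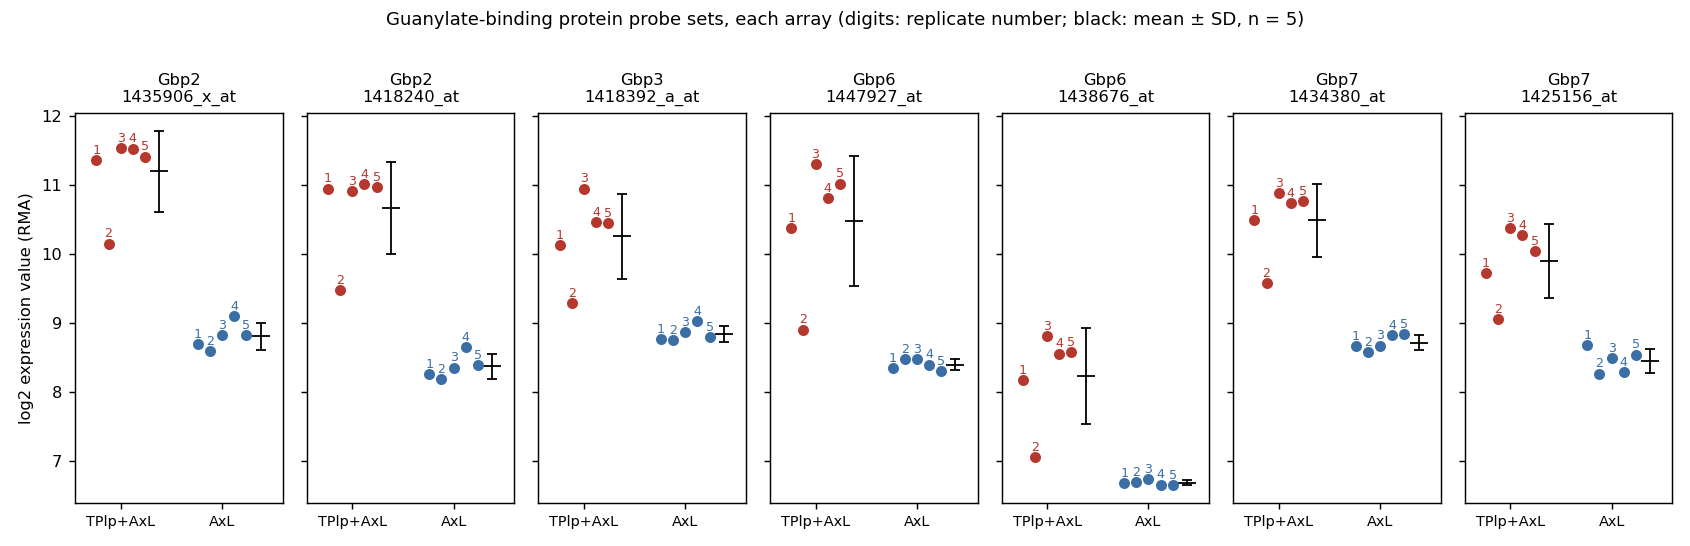
Log2 expression value (y axis) of the 7 member probe sets on each array, with TPlp+AxL in red at the left and AxL in blue at the right of each panel; digits give the replicate number and black marks the mean ± SD (n = 5). Replicate 2 is the lowest TPlp+AxL array in all 7 panels, and every TPlp+AxL array lies above every AxL array.

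Gbp2 encodes a lipid-anchored member that is recruited to vacuoles of Toxoplasma and to bacteria. Its brighter probe set, 1435906_x_at, read 11.36, 10.15, 11.54, 11.53 and 11.42 on TPlp+AxL arrays 1 to 5, against 8.70, 8.59, 8.83, 9.11 and 8.82 on AxL arrays 1 to 5. Of the TPlp+AxL arrays, 4 spanned 0.18 and array 2 lay 1.21 below the next. The means were 11.20 ± 0.59 in TPlp+AxL and 8.81 ± 0.19 in AxL (SD, n = 5 each), a log2 difference of 2.39 (SE 0.23). The other probe set, 1418240_at, gave 10.95, 9.48, 10.91, 11.02 and 10.97 in TPlp+AxL and 8.27, 8.19, 8.36, 8.66 and 8.39 in AxL. Array 2 again stood alone, 1.44 below its nearest neighbour, and the log2 difference was 2.29 (SE 0.26). AxL 4 was the highest AxL array in both.

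Gbp7 encodes a member that binds the phagocyte oxidase and the autophagy protease Atg4b. Probe set 1434380_at had values of 10.49, 9.59, 10.89, 10.74 and 10.77 in TPlp+AxL, against 8.67, 8.58, 8.67, 8.83 and 8.84 in AxL, a log2 difference of 1.78 (SE 0.20). Probe set 1425156_at had 9.72, 9.06, 10.38, 10.28 and 10.05 in TPlp+AxL, against 8.68, 8.27, 8.50, 8.29 and 8.54 in AxL, a log2 difference of 1.44 (SE 0.21). Both place TPlp+AxL 3 highest and TPlp+AxL 2 lowest, while the order of the AxL arrays differs between them.

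Gbp3, which lies next to Gbp7 in the chromosome 3 cluster, had the smallest difference. Probe set 1418392_a_at read 10.13, 9.29, 10.95, 10.47 and 10.45 in TPlp+AxL and 8.77, 8.76, 8.87, 9.03 and 8.80 in AxL, with means of 10.26 ± 0.61 and 8.84 ± 0.11 (SD, n = 5 each) and a log2 difference of 1.42 (SE 0.24). TPlp+AxL 2 was only 0.27 above the highest AxL array.

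Gbp6, the measured member from the chromosome 5 cluster, had the widest spread. Probe set 1447927_at read 10.38, 8.91, 11.31, 10.81 and 11.03 in TPlp+AxL, against 8.35, 8.48, 8.48, 8.40 and 8.31 in AxL. The mean of 10.49 ± 0.95 in TPlp+AxL and 8.40 ± 0.08 in AxL (SD, n = 5 each) gives a log2 difference of 2.09 (SE 0.36). The dimmer probe set, 1438676_at, read 8.17, 7.06, 8.81, 8.56 and 8.58 in TPlp+AxL, against 6.69, 6.69, 6.74, 6.66 and 6.65 in AxL, a log2 difference of 1.55 (SE 0.26). Its AxL arrays spanned 0.08, the narrowest AxL range of the 7. Gbp6 has close relatives beside it, among them Gbp10, and how far these probes also bind them was not tested.

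**Figure D2:**
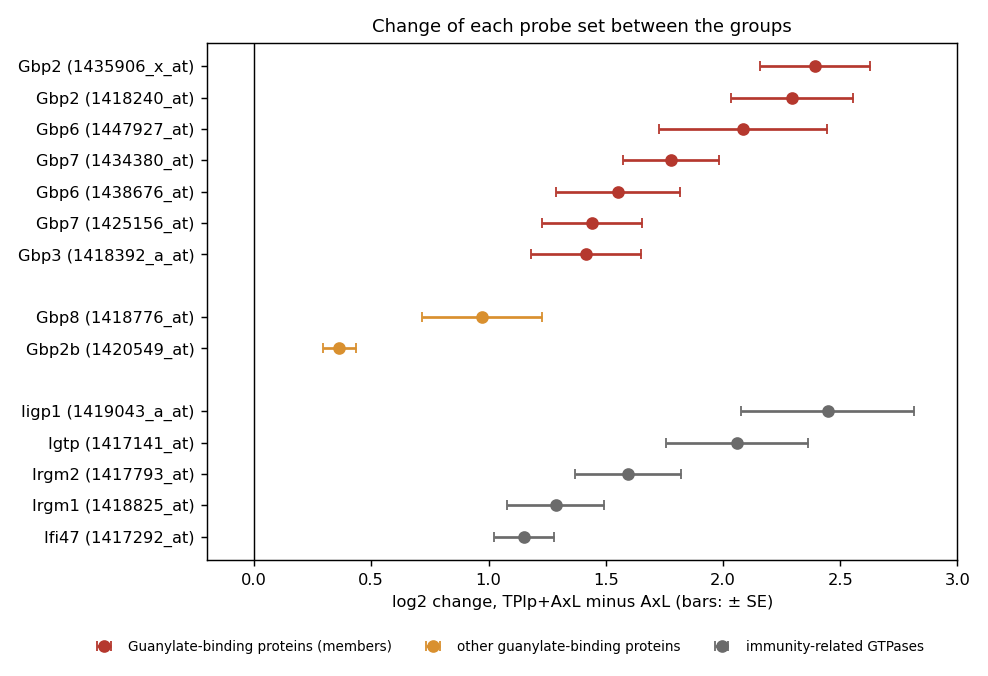
Log2 difference, TPlp+AxL minus AxL (x axis), of each member probe set, of Gbp8 and Gbp2b, and of the 5 measured immunity-related GTPases (brightest probe set of each gene); bars give ± SE from the limma fit. The members run from 1.42 to 2.39, Gbp2b is at 0.36, and the immunity-related GTPases run from 1.15 to 2.45.

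The spread among mice was unequal. The SD of the 7 probe sets was 0.53 to 0.95 in TPlp+AxL and 0.03 to 0.19 in AxL. Much of the TPlp+AxL spread came from 1 mouse: array 2 was the lowest of its group in 7 of 7 probe sets, and without it the SD was 0.05 to 0.39. Array 3 was the highest in 6 of 7, and array 4 was in the remaining one, 1418240_at of Gbp2. Within the narrower AxL spread, AxL 2 was the lowest in 5 of 7 and AxL 5 in 2. Relative to the AxL mean, TPlp+AxL 2 was 2.54-fold and 2.15-fold higher in the Gbp2 probe sets, 1.83-fold and 1.52-fold in those of Gbp7, 1.37-fold in Gbp3 and 1.42-fold and 1.30-fold in those of Gbp6. Over the other 4 TPlp+AxL arrays the same folds were 6.29 and 6.03 for Gbp2, 4.01 and 3.14 for Gbp7, 3.15 for Gbp3, and 5.58 and 3.60 for Gbp6.

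The members also varied together within the groups. After each group's mean was subtracted, the 21 pairs of probe sets had Pearson correlations of 0.781 to 0.995 over the 10 arrays, with a median of 0.918. Without TPlp+AxL 2 they ran from 0.254 to 0.981 over 9 arrays, with a median of 0.719. In both cases the highest was between the Gbp6 probe sets, and the lowest was between 1418240_at of Gbp2 and 1425156_at of Gbp7. The pairs share arrays, so these values are descriptions.

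The count of members past the threshold rested on several arrays. It was 4 of 7 without TPlp+AxL 4, without TPlp+AxL 5 or without AxL 5, where Gbp3 and both Gbp6 probe sets missed it, and 6 without AxL 1. TPlp+AxL 1, AxL 3 and AxL 5 had a high mean over 8 choroid plexus markers (9.52, 10.30 and 9.43, against 8.18 to 8.29 on the other arrays). With these 3 left out together, 0 of 7 passed an adjusted p of 0.05 in limma while 7 of 7 had an unadjusted p under 0.05, and the log2 differences were 1.44 to 2.36. In that smaller fit 1 of 45037 probe sets passed, and 4743 had an unadjusted p under 0.05.

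The rest of the family was less well covered. Of Gbp2b, Gbp5, Gbp8, Gbp9, Gbp10 and Gbp11, 2 had a probe set of their own, and 1 of these 2 rose, beside 0.978% of all genes. Gbp2b, known for long as mouse Gbp1, read 7.96, 7.83, 8.20, 8.01 and 8.05 in TPlp+AxL, against 7.74, 7.76, 7.54, 7.54 and 7.63 in AxL (log2 difference 0.36, SE 0.07, limma adjusted p = 0.0346). Its groups did not overlap, but its difference is well under those of Gbp3 and Gbp2, which flank it, and the difference between these genes was not tested. It passed with TPlp+AxL 2 or AxL 2 left out and missed the threshold with any other single array left out, at log2 differences of 0.32 to 0.39. Gbp8, first in the chromosome 5 cluster, read 6.80, 6.43, 8.22, 7.20 and 7.24 in TPlp+AxL, against 6.34, 6.12, 6.29, 6.11 and 6.16 in AxL (log2 difference 0.97, SE 0.26, limma adjusted p = 0.125). The groups did not overlap, TPlp+AxL 3 stood highest, and this probe set is under the 40th percentile of all probe sets by its mean. Gbp8 passed without TPlp+AxL 2, at a log2 difference of 1.16.

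Genes that border the clusters and had a probe set of their own, looked up after the values were seen, did not pass. On chromosome 3 these were Unc5c, Bmpr1b and Pdlim5 on one side and Kyat3, Gtf2b and Pkn2 on the other, with log2 differences of -0.13 to 0.10 and limma adjusted p of 0.330 to 0.659. On chromosome 5, Abcg3 had 0.12 (adjusted p = 0.180) and Lrrc8c -0.06 (adjusted p = 0.753). There Zfp951, Gm20385, Lrrc8b and Gm42166 had no probe set of their own. In limma Abcg3 was higher and Gtf2b lower at an unadjusted p under 0.05, beside 5.76% and 12.1% of all genes. Since only 0.978% of all genes passed as higher and 0.280% as lower, nothing is read from so few genes.

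The interferon gamma chain that acts ahead of these genes was measured for 13 members, and 3 rose, beside 0.978% of all genes. In limma 0 of the 13 fell, beside 0.280% of all genes. At an unadjusted p under 0.05, 7 were higher and 1 was lower, beside 5.76% and 12.1% of all genes. Its median log2 difference was 0.14, beside -0.03 over all genes. Ifng, the cytokine, read 7.16, 6.62, 6.98, 7.01 and 7.18 in TPlp+AxL, against 6.65, 6.57, 6.55, 6.60 and 6.54 in AxL (log2 difference 0.41, SE 0.09, limma adjusted p = 0.0706). This probe set is dim, under the 40th percentile of all probe sets by its mean. On TPlp+AxL 2 it lay inside the AxL range. Without that array Ifng passed, at 0.50. Irf1, the interferon-induced transcription factor that binds the response element shown above, rose, with 10.39, 9.71, 10.30, 10.42 and 10.63 in TPlp+AxL and 9.34, 9.30, 9.32, 9.37 and 9.34 in AxL (log2 difference 0.96, SE 0.13, limma adjusted p = 0.00644). TPlp+AxL 2 was again the lowest of its group and still above every AxL array.

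Irf8, an interferon-induced factor of myeloid cells, rose by 0.65 (limma adjusted p = 0.0204) and by 0.37 in its other probe set (adjusted p = 0.00956). The receptor chain Ifngr1 rose by 0.21 (adjusted p = 0.0367), while its partner chain Ifngr2 had a log2 difference of 0.13 and overlapping groups (adjusted p = 0.772). The Irf8 call was lost without TPlp+AxL 1, 3, 4 or 5 or AxL 1, 3 or 5, at 0.62 to 0.66. The Ifngr1 call was kept without TPlp+AxL 2 or AxL 3 and lost without any other single array, at 0.19 to 0.23. Accordingly 1 of the 13 passed without TPlp+AxL 1, 3, 4 or 5 or AxL 1 or 5, and 5 passed without TPlp+AxL 2.

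Other targets of interferon gamma, outside the GTPases, rose in 8 of 23 listed genes, beside 0.978% of all genes, with a median log2 difference of 0.74. The largest were the chemokines Cxcl9 (1.87, limma adjusted p = 0.00257), Cxcl11 (1.75, adjusted p = 0.0101) and Cxcl10 (1.56, adjusted p = 0.0109), which attract T cells, and the immunoproteasome subunit Psmb9 (1.58, adjusted p = 0.0209). A dimmer probe set of Cxcl9 had a log2 difference of 0.15 and one of Cxcl11 0.24, and neither passed. Psmb9 missed the threshold without TPlp+AxL 4 or 5 or AxL 1 or 5, at 1.53 to 1.58. The number that passed was 14 of 23 without TPlp+AxL 2 and 6 to 10 without any other single array.

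The immunity-related GTPases, a second family of interferon-induced GTPases that load onto the same vacuoles, rose in 5 of 5 measured members of 9 listed, beside 0.978% of all genes, with a median log2 difference of 1.59. Igtp, a regulatory member, read 10.66, 9.39, 11.44, 10.98 and 11.15 in TPlp+AxL, against 8.67, 8.51, 8.66, 8.82 and 8.67 in AxL (log2 difference 2.06, limma adjusted p = 0.00918). Iigp1, an effector that coats vacuoles, differed by 2.45 (adjusted p = 0.0101), and by 2.27 in its other probe set. The further regulators Irgm2 and Irgm1 differed by 1.59 (adjusted p = 0.00762) and 1.29 (adjusted p = 0.0145). Of the listed genes 7 had a promoter in the table, and 6 of the 7 held the response element core, beside 3.99% of all genes. In the type I interferon list 6 of 12 genes with a promoter held it. The core was in 2 of 12 genes of the interferon gamma chain and in 1 of 12 of its other targets. Of the genes that act with guanylate-binding proteins, 1 of 17 held it. Without TPlp+AxL 4 Irgm1 missed the threshold, at 1.25, and 4 of 5 immunity-related GTPases passed. This list, like the others, was chosen with earlier results of these data known, so its count is a description.

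**Figure D3:**
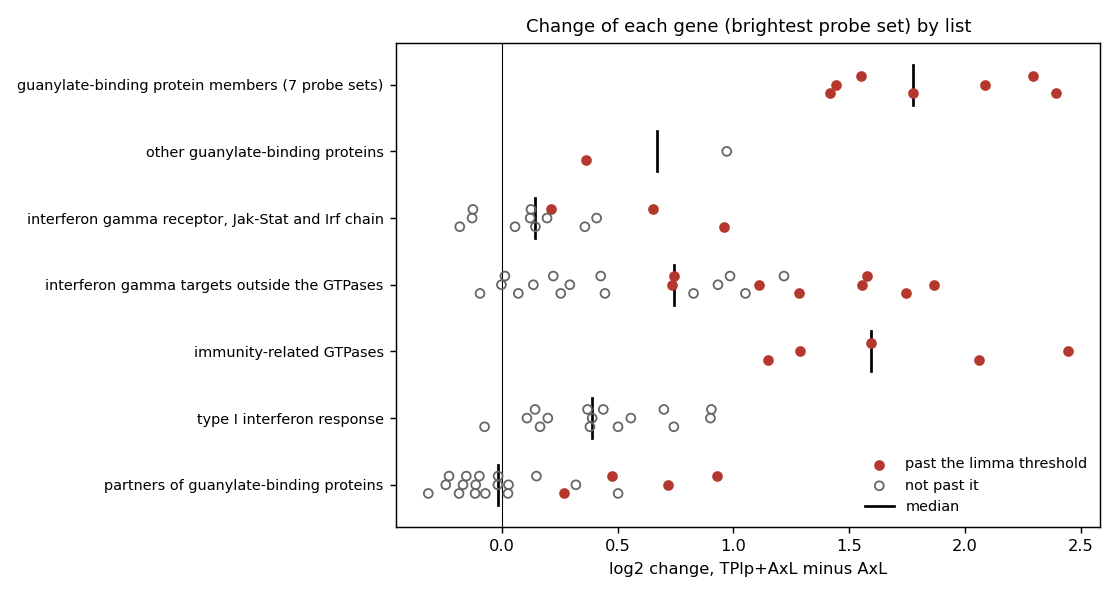
Log2 difference, TPlp+AxL minus AxL (x axis), of the 7 member probe sets and of each measured gene in the 6 related lists (rows; brightest probe set of a gene); filled points passed the limma threshold, open points did not, and the vertical bar is the median. The medians run from -0.02 for the partner genes to 1.78 for the members.

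Genes of the type I interferon response, which can also raise guanylate-binding proteins, passed in 0 of 15 measured members of 17 in limma, while 12 were higher at an unadjusted p under 0.05, beside 5.76% of all genes, and 14 were positive. Their median log2 difference was 0.39. The smallest p belonged to the antiviral protein Rsad2 (0.38, adjusted p = 0.0934) and to the receptor transporter Rtp4 (0.90, adjusted p = 0.0971). Other probe sets of Rsad2 (0.26 and 0.12) and Rtp4 (0.09) did not pass either. Without TPlp+AxL 2, 5 of 15 passed.

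Among 21 genes that act with guanylate-binding proteins, 4 rose in limma, beside 0.978% of all genes, and 0 fell, beside 0.280%. At an unadjusted p under 0.05, 7 were higher and 6 lower, beside 5.76% and 12.1% of all genes, and the median was -0.02. Those that rose were Cybb, the catalytic subunit of the phagocyte oxidase (0.93, limma adjusted p = 0.00635), the inflammatory caspases Casp4, known as caspase-11 in mice (0.72, adjusted p = 0.00081), and Casp1 (0.48, adjusted p = 0.00648), and Gsdmd, the pore-forming protein they cleave (0.27, adjusted p = 0.0315). Casp4 read 8.23, 7.97, 8.26, 8.33 and 8.19 in TPlp+AxL, against 7.57, 7.47, 7.46, 7.41 and 7.49 in AxL. TPlp+AxL 2 was the lowest of its group here too, though closer to the others than in the member genes. Another Cybb probe set passed (0.48) and a further one did not (0.12). The autophagy genes of this list did not pass. The 6 that were lower at an unadjusted p under 0.05, named after their values were seen, were the cargo receptor Sqstm1 (log2 difference -0.32), Gabarapl1 (-0.24), Gabarapl2 (-0.23), Gabarap (-0.19), the Gbp7 partner Atg4b (-0.17) and Map1lc3a (-0.15), with limma adjusted p of 0.170 to 0.320. Gsdmd missed the threshold without TPlp+AxL 4 or 5 or AxL 1, 2 or 3, at 0.24 to 0.27.

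**Figure D4:**
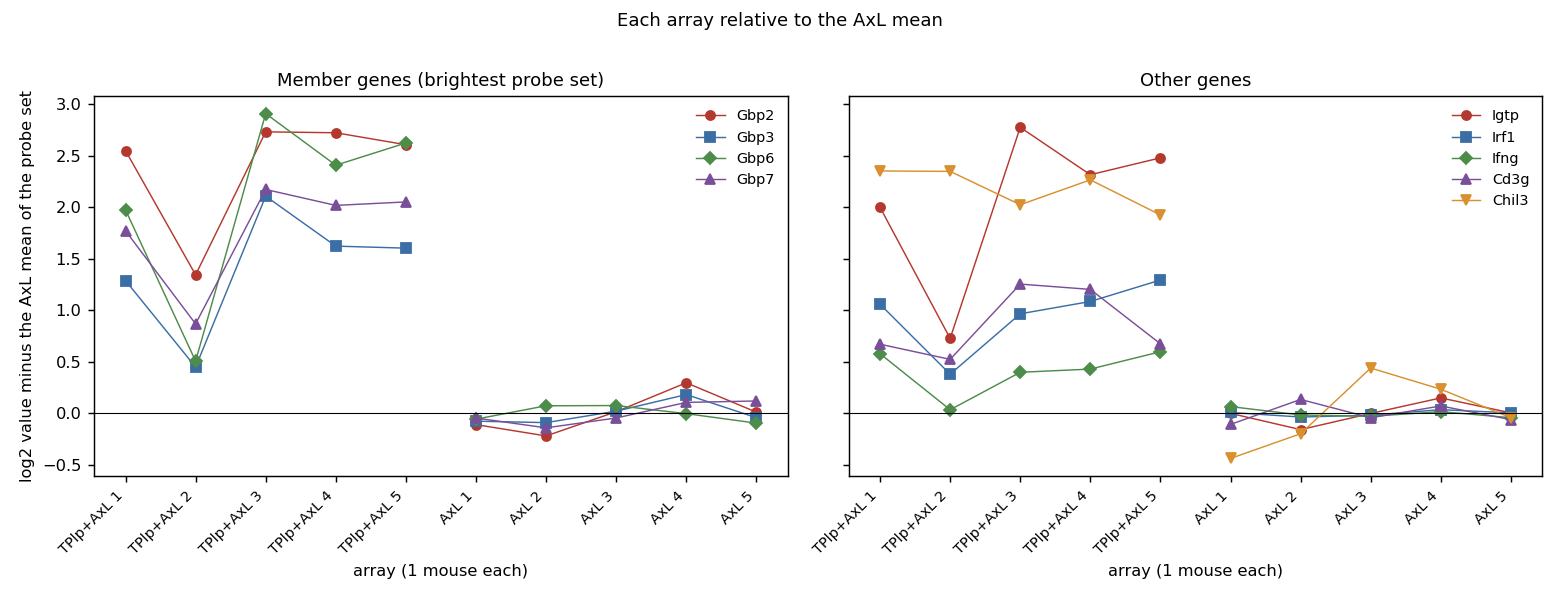
Log2 value minus the AxL mean of the probe set (y axis) on each array (x axis, TPlp+AxL 1 to 5 and then AxL 1 to 5), for the 4 member genes at the left and for Igtp, Irf1, Ifng, Cd3g and Chil3 at the right; lines join arrays of 1 gene within a group and stand for no order. TPlp+AxL 2 dips in all 4 member genes and in Igtp, Irf1 and Ifng. Its Cd3g value is also the lowest of its group, but its Chil3 value is among the highest.

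The within-group pattern was compared with the rest of the array. The group-centred values of the 4 member genes, averaged, gave 1 profile over the 10 arrays, with -1.12 on TPlp+AxL 2 and 0.56 on TPlp+AxL 3. Among the 2445 other probe sets with 1 gene symbol and a within-group SD of at least 0.2, the 8 most like it were those of Igtp (r = 0.996), the monocyte chemoattractant Ccl7 (0.979), Trim30a (0.968), Iigp1 (0.966 and 0.961 in its probe sets), Irgm2 (0.965), Cd274 (0.964), the ligand of the inhibitory receptor PD-1, and Herc6 (0.963), a ligase of the ubiquitin-like protein Isg15. Without TPlp+AxL 2 the correlation over 9 arrays was 0.982 for Igtp, 0.916 for Ccl7, 0.907 for Herc6 and 0.847 to 0.860 for the others. For Irf1 it was 0.864 over 10 arrays and 0.381 over 9, and for Ifng 0.768 and 0.049. Of the measured immunity-related GTPases not among the 8, Irgm1 had 0.951 and 0.780, and Ifi47 had 0.789 and 0.087. Of the 8 probe sets, 7 rose between the groups, beside 0.646% of all probe sets. They were picked by likeness to the members, and the SD of each was larger in TPlp+AxL than in AxL. Nothing is therefore read from that count. Herc6 did not pass (log2 difference 0.47, limma adjusted p = 0.129) except without TPlp+AxL 2, at 0.59, and Trim30a (0.72, adjusted p = 0.0176) missed the threshold without TPlp+AxL 4 or 5 or AxL 3 or 5.

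Markers of some cell types differed between the groups, and some of them varied with these genes. In the T cell list 2 of 8 measured markers of 11 rose, beside 0.978% of all genes, and the list mean was 7.84 to 8.07 in TPlp+AxL and 7.59 to 7.69 in AxL. Monocyte and neutrophil markers rose in 5 of 9 measured of 11, with list means of 9.38 to 9.63 in TPlp+AxL and 8.43 to 8.89 in AxL, and cytotoxic and NK cell markers in 4 of 7, with 7.75 to 8.05 in TPlp+AxL and 7.47 to 7.52 in AxL. In a whole hippocampus more cells of a type and more RNA per cell cannot be told apart. The array lowest in the member genes, TPlp+AxL 2, was also the lowest of its group in the microglia mean (9.58, with TPlp+AxL 4 at 9.70). It was lowest by little in the monocyte and neutrophil mean (9.38, with TPlp+AxL 5 at 9.41). The cytotoxic and NK cell mean was likewise lowest there by little (7.75, with TPlp+AxL 1 at 7.76). The same held for the oligodendrocyte mean (11.63, with TPlp+AxL 3 at 11.64). TPlp+AxL 2 was not the lowest in the T cell mean, at 7.87, or in Chil3, a gene of infiltrating monocytes, at 10.63, against 7.84 to 8.72 in AxL. In the T cell list Cd3g (log2 difference 0.87) and Cd3d (0.63) passed, and Cd2 (0.40) and Cd28 (0.19) did not. Cd3e (0.12), Cd4 (0.06), Cd247 (0.04) and Cd8a (0.02) had overlapping groups and did not pass. The CD3 chain Cd3g, the largest of these, read 7.48, 7.33, 8.06, 8.01 and 7.48 in TPlp+AxL, against 6.70, 6.94, 6.76, 6.88 and 6.74 in AxL. Array 3, the highest in 6 of 7 member probe sets, was also highest in Cd3g, and array 2 was lowest of its group. The part of these cells in the member values was not tested.

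Markers of resident cells did not pass in either direction in limma, and those with an unadjusted p under 0.05 were all lower in TPlp+AxL. Of all genes, 12.1% were lower at that level, and after adjustment 0.978% passed as higher and 0.280% as lower. In lists this short 0 calls are near those adjusted shares, so nothing is read from them. A count of 1 of 7 unadjusted is near the 12.1%. The unadjusted counts of 4 of 7 for endothelium, 4 of 5 for oligodendrocytes and 4 of 6 for neurons are well above it. In these lists 0 markers had a positive log2 difference, and the cause was not tested. Of 7 measured markers each, 0 passed for microglia, astrocytes, endothelium and hippocampal neurons, and 1, 2, 4 and 1 had an unadjusted p under 0.05 in that order. For oligodendrocytes 0 of 5 passed, with 4 at an unadjusted p under 0.05, and for neurons 0 of 6, also with 4. For B cells 0 of 5 passed, with 1 unadjusted, and for choroid plexus (8 markers) and for meninges and fibroblasts (6 markers) 0 passed and 0 had an unadjusted p under 0.05. The list mean of endothelium was 8.38 to 8.51 in TPlp+AxL and 8.48 to 8.86 in AxL, that of oligodendrocytes 11.63 to 11.83 in TPlp+AxL and 11.77 to 12.10 in AxL, and that of neurons 12.41 to 12.68 in TPlp+AxL and 12.62 to 12.84 in AxL. For astrocytes it was 12.12 to 12.42 in TPlp+AxL and 12.23 to 12.50 in AxL, for microglia 9.58 to 9.88 in TPlp+AxL and 9.72 to 9.98 in AxL, and for hippocampal neurons 10.60 to 10.76 in TPlp+AxL and 10.62 to 10.80 in AxL. For choroid plexus it was 8.25 to 9.52 in TPlp+AxL and 8.18 to 10.30 in AxL.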

How the data were processed

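RNA of 10 mouse hippocampi was hybridised to Affymetrix arrays, 1 mouse per array. The deposited table holds log2 expression values, and the submitters' processing notes name RMA as the authors' method. The software version is not given in the sources used here. Probe sets were named through the platform annotation: 34945 list 1 gene symbol, 932 several and 9160 none. Of 45101 deposited probe sets, 64 controls were left out.

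TPlp+AxL and AxL were compared with limma 3.58.1 (lmFit and eBayes) in R 4.3.3 on the log2 values of all 45037 probe sets, with a two-sided test and Benjamini-Hochberg adjustment at 0.05, after the fit had been tested on simulated data. A gene in a list stands by its brightest probe set with 1 symbol. Named genes were all member and other guanylate-binding protein probe sets, up to 4 called genes with the largest change per pathway list (or the 2 with the smallest p), Ifng and Irf1, and the 8 probe sets most like the members. The profile of likeness used 4 of the 5 member genes, since Gbp4 had no probe set of its own. Members and lists were chosen with earlier results of these data known. Labels call the arrays separate mice. Alternatives changed the variance model, normalization, filters, array weights, choice of probe sets and the arrays used.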

Additional observations from a re-analysis of the deposited data

Results flagged for a closer look

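Single arrays stood apart from the rest of their group in 5 of the 52 groups of values examined, where chance gives about 1 in 20. The measure is the gap to the nearest array divided by the range of the group, with a critical value of 0.71 for 5 arrays. Among the member probe sets these were 2 of 14, both for Gbp2. On TPlp+AxL 2, 1435906_x_at of Gbp2 read 10.15, with the next array at 11.36 and a ratio of 0.869. On the same array 1418240_at of Gbp2 read 9.48, with the next at 10.91 and a ratio of 0.929.

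TPlp+AxL 2 was also far below its group in Irf8 (8.95, next 9.48, ratio 0.864) and in Irgm1 (9.58, next 10.59, ratio 0.793). Gsdmd stood apart in the other direction on TPlp+AxL 3 (8.06, next 7.88, ratio 0.845).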

How the results depend on the processing

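All member log2 differences stayed positive under every alternative that gave a value, between 1.24 and 2.65. Member calls were 5 of 7 with trended and robust variance, where both Gbp6 probe sets missed the threshold, and 4 to 7 with 1 array left out. Over the whole table, 376 probe sets passed, against 753 with array weights, 241 with the replicate block and 185 to 460 with 1 array left out. With 1 array left out the calls were 0 to 2 for the other guanylate-binding proteins, 1 to 5 for the interferon gamma chain, 6 to 14 for its targets, 4 to 5 for the immunity-related GTPases, 0 to 5 for the type I list and 3 to 5 for the partners. The type I list had 1 call with the mean of a gene's probe sets. Without TPlp+AxL 1, AxL 3 and AxL 5, a choice made after seeing the data, 1 probe set passed in limma (4743 at an unadjusted p under 0.05). There 0 passed among the members (7 unadjusted), the other guanylate-binding proteins (2), the chain (7), the targets (17), the immunity-related GTPases (5) and the partners (10); fewer arrays entered that fit. The replicate numbers as a whole did not pair the arrays, with correlations of deviations of -0.131, 0.363, 0.274, -0.224 and -0.0793, 2 of 5 over 0.1. Only TPlp+AxL 2 correlated best with the AxL array of its own number, and what these arrays share was not tested. With the replicate block 7 member probe sets passed and 0 of the other guanylate-binding proteins, since Gbp2b missed the threshold. Lrrc8c, not called, turned positive with cyclic loess (0.0080) and without those 3 arrays (0.044). Of 591 values of 33 named probe sets, 522 kept direction and call, 63 lost and 4 gained the call. Causes were not tested, and 5 arrays per group limit the precision.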
